A study of Homo sapiens with 6 samples.

Results

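The pentose phosphate pathway was followed through 9 of its enzyme genes in MDA-MB-231 cells. This human line was established from a breast cancer of the triple-negative kind. The genes were H6PD, PGLS, PGD, RPIA, RPE, TKT, TKTL1, TALDO1 and RBKS, taken by their symbols in the array's annotation out of 18404 genes, and each had 1 probe set. One group of 3 cultures was grown in 10 mM fructose and the other group of 3 in 25 mM glucose, in DMEM and for 25 days, with 1 array of total RNA per culture. Cultures were harvested near 70% confluency and about 24 hours after a medium change. The batches were adapted separately, and the labels do not say whether they came from a single clone. Sugar and concentration changed together, and the separate effect of each cannot be told apart here.

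The pathway takes glucose 6-phosphate out of glycolysis. Its oxidative branch yields NADPH, which feeds reductive synthesis and antioxidant defence, and ends in ribulose 5-phosphate. Its non-oxidative branch interconverts sugar phosphates reversibly, so that ribose 5-phosphate for nucleotides can be made from, or returned to, fructose 6-phosphate and glyceraldehyde 3-phosphate. Cells that break down fructose can therefore reach ribose 5-phosphate through either branch, provided that hexose phosphate is formed.

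TXNIP, which is transcribed in response to glucose, served as the check of the labels. It had RMA intensities of 107, 122 and 136 in fructose, against 1639, 1781 and 1656 in glucose, and it was the single probe set of 28230 to pass the limma test (0.00354%). Of 6 markers fixed for this line, 5 were brighter than the median probe set, VIM and CD44 among them, whereas SPARC was not. Of 8 luminal markers, 4 were below that median (ESR1, PGR, CDH1 and FOXA1) and 4 above it (KRT19, ERBB2, GATA3 and TFF1). KRT19 had 1885, 1961 and 1851 in fructose, against 1669, 1760 and 1812 in glucose, and was higher on every fructose array, and its part in the results was not tested. All 5 measured genes of the leukocyte list, which includes the red-cell gene HBB, lay below the median probe set. So did 4 of 5 fibroblast markers. The summed intensity of the leukocyte list ran from 86.1 to 88.8 in fructose and from 82.0 to 97.3 in glucose. Within it, HBB had 24.0, 23.0 and 22.3 in fructose, against 27.7, 15.9 and 18.5 in glucose. For the fibroblast markers the sum ran from 87.6 to 92.0 in fructose and from 93.2 to 99.2 in glucose. On the first principal component (28.8% of the variance) fructose replicate 2 scored -5.67. It lay nearer to the glucose arrays (13.5 to 14.8) than the other fructose arrays did (-17.9 and -19.3). The difference of each member without that array is given beside its main value.

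RNA levels of 4 genes, PGLS, PGD, TKT and TALDO1, were higher on every fructose array than on any glucose array, by 1.15-fold to 1.32-fold in the mean. RPE, the epimerase that links the branches, was lower on every fructose array, at 0.81 of its glucose level. H6PD, RPIA, TKTL1 and RBKS overlapped between the sugars. None of the 9 genes passed the test over all 28230 probe sets (limma with Benjamini-Hochberg adjustment, smallest adjusted p = 0.19 for RPE), so these are differences of small size that were separated on 3 arrays against 3 but did not survive the correction. At an unadjusted p under 0.05 the count was 5 of 9, where 13.1% of all probe sets met that limit. PGD missed the limit with each array centred on its median (limma unadjusted p = 0.059) and without glucose replicate 2 (0.057). TKTL1 met it without fructose replicate 2 (limma unadjusted p = 0.044).

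**Figure D1:**
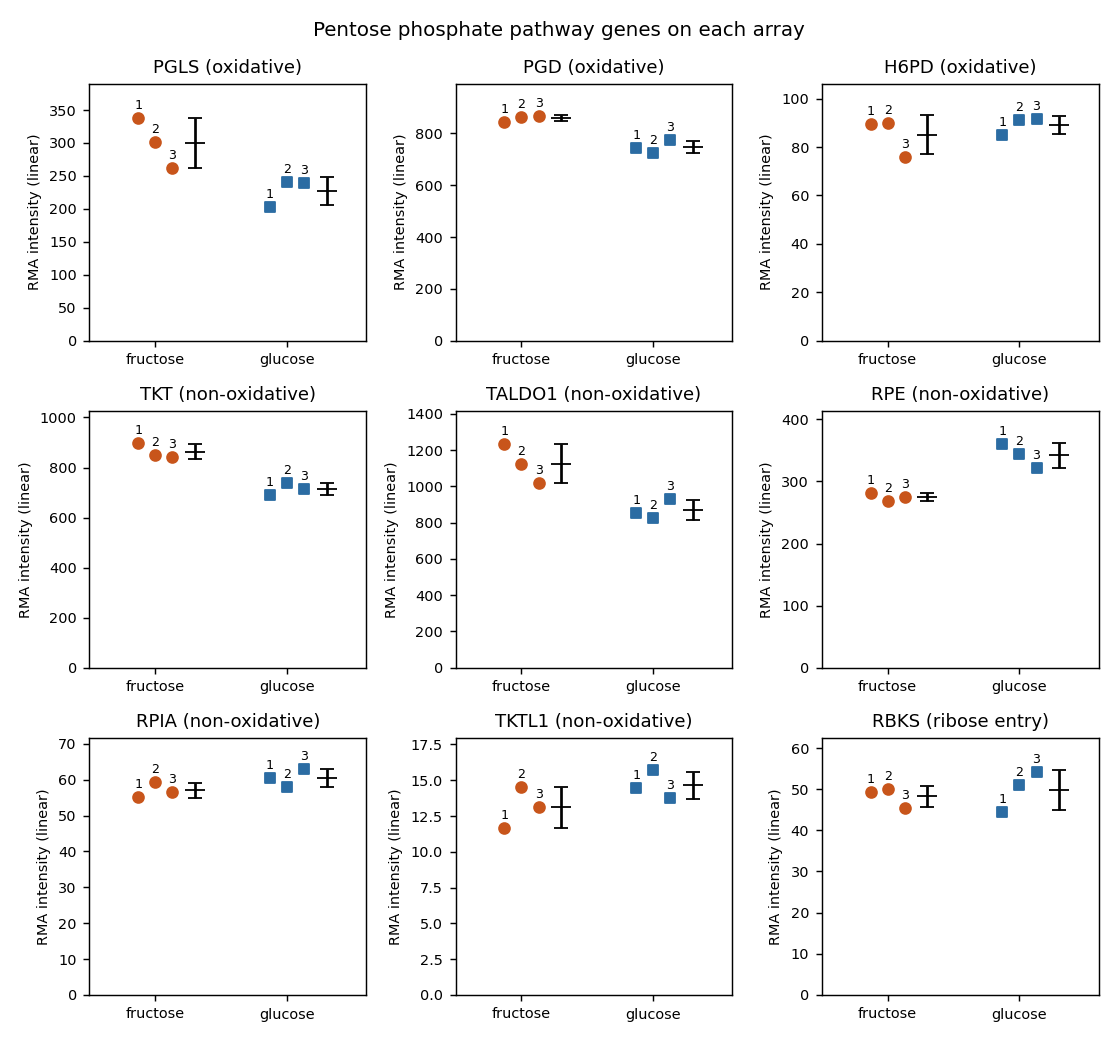
Intensity of each of the 9 genes (RMA, linear scale, axes from 0) on the 3 fructose arrays (orange circles) and the 3 glucose arrays (blue squares), numbered by replicate, with mean and SD beside them. PGLS, PGD, TKT and TALDO1 lie higher on all fructose arrays, RPE lies lower on all of them, and the other 4 genes overlap.

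The oxidative branch was represented by 3 genes. PGLS encodes 6-phosphogluconolactonase, which opens the lactone made in the first oxidative step. Its intensity was 338, 302 and 261 in fructose, against 203, 241 and 239 in glucose. The groups did not overlap, but fructose replicate 3 lay close to the higher glucose arrays. The log2 difference was 0.40 (SE 0.12, 95% interval 0.12 to 0.67), with an adjusted p of 0.25 in limma, and this was the least precise of the 9 estimates. It ranged from 0.31 without fructose replicate 1 to 0.49 without fructose replicate 3, and was 0.39 without fructose replicate 2.

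PGD encodes 6-phosphogluconate dehydrogenase, the NADPH-forming step that releases carbon dioxide and leaves ribulose 5-phosphate. It stood at 845, 865 and 867 in fructose, against 745, 725 and 774 in glucose. The fructose arrays lay within a narrow band above the glucose arrays. The difference was 0.20 on the log2 scale (SE 0.06, interval 0.05 to 0.35, limma adjusted p = 0.28), and 0.19 without fructose replicate 2.

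H6PD encodes a bifunctional enzyme of the endoplasmic reticulum lumen that carries out the dehydrogenase and lactonase steps there and keeps up a separate pool of NADPH. Its intensity was 89.7, 89.8 and 75.8 in fructose, against 84.9, 91.0 and 91.6 in glucose. Only fructose replicate 3 was below the glucose arrays, and the log2 difference of -0.07 (SE 0.09, interval -0.28 to 0.14) turned to 0.01 without that array and was -0.11 without fructose replicate 2. A ratio within an array is not moved by a constant factor on that array, but other normalizations can move it. The ratio of PGD to H6PD stood above its glucose mean by 0.17, 0.20 and 0.45 in fructose. The glucose arrays deviated from that mean by 0.07, -0.07 and 0.01 (log2). With quantile normalization again, the log2 difference between the sugars was 0.22 for PGD and -0.09 for H6PD. The cytosolic PGD and the luminal H6PD thus differed between the sugars by unequal amounts on these arrays.

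The 5 genes of the non-oxidative branch went in both directions. TKT encodes transketolase, which moves a ketol unit between sugar phosphates with thiamine diphosphate as cofactor. Its intensity was 898, 850 and 843 in fructose, against 690, 739 and 713 in glucose, with no overlap and a gap wider than the spread within either sugar. The log2 difference was 0.27 (SE 0.07, interval 0.12 to 0.43), with a limma adjusted p of 0.21, and it was 0.29 without fructose replicate 2.

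TALDO1 encodes transaldolase, which works with transketolase to return pentose phosphates to glycolytic intermediates. It had 1233, 1124 and 1020 in fructose, against 855, 826 and 932 in glucose. All fructose arrays were higher, with replicate 1 farthest from glucose and replicate 3 nearest to it. The log2 difference was 0.37 (SE 0.09, interval 0.15 to 0.59, limma adjusted p = 0.21), between 0.30 and 0.44 when any single array was left out and 0.37 without fructose replicate 2.

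RPE encodes ribulose 5-phosphate 3-epimerase, which makes the xylulose 5-phosphate that transketolase uses. It had 281, 269 and 276 in fructose, against 360, 344 and 321 in glucose, so every fructose array was lower. The log2 difference was -0.31 (SE 0.07, interval -0.48 to -0.14, limma adjusted p = 0.19) and -0.30 without fructose replicate 2. RPEL1, an intronless copy closely related to RPE, has a probe set of its own, and whether transcripts of the copy reach the RPE probe set was not tested. The RPEL1 probe set was dimmer than the median, with 14.9, 11.4 and 14.8 in fructose, against 19.2, 16.1 and 15.9 in glucose. It too was lower on every fructose array, and its difference was -0.32 (SE 0.13, limma unadjusted p = 0.044, adjusted p = 0.37).

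RPIA encodes the isomerase that turns ribulose 5-phosphate into ribose 5-phosphate, the other exit from the oxidative branch. It had 55.2, 59.4 and 56.6 in fructose, against 60.4, 57.9 and 63.0 in glucose. The ranges overlapped through fructose replicate 2, and the log2 difference was -0.08 (SE 0.07, interval -0.25 to 0.08). Without that array the sugars no longer overlapped, and the difference was -0.11 with a limma adjusted p of 0.55.

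TKTL1, a transketolase-like gene whose product's catalytic activity is debated, was the single member dimmer than the median probe set (intensity 32.3). Its intensity was 11.7, 14.5 and 13.1 in fructose, against 14.5, 15.7 and 13.8 in glucose, and its difference was -0.16 (SE 0.10, interval -0.40 to 0.07). Fructose replicate 2 lay among the glucose arrays. Without it the difference was -0.24, with no overlap and a limma adjusted p of 0.34, and without fructose replicate 1 it was -0.08 with an adjusted p of 0.79. RBKS, ribokinase, phosphorylates free ribose and so feeds the pathway from outside either branch. It had 49.3, 50.0 and 45.3 in fructose, against 44.5, 51.0 and 54.1 in glucose. The fructose values lay within the range of the glucose values, with a log2 difference of -0.04 (SE 0.09, interval -0.26 to 0.17), which was -0.07 without fructose replicate 2. The sign turned (0.02) without glucose replicate 3.

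**Figure D2:**
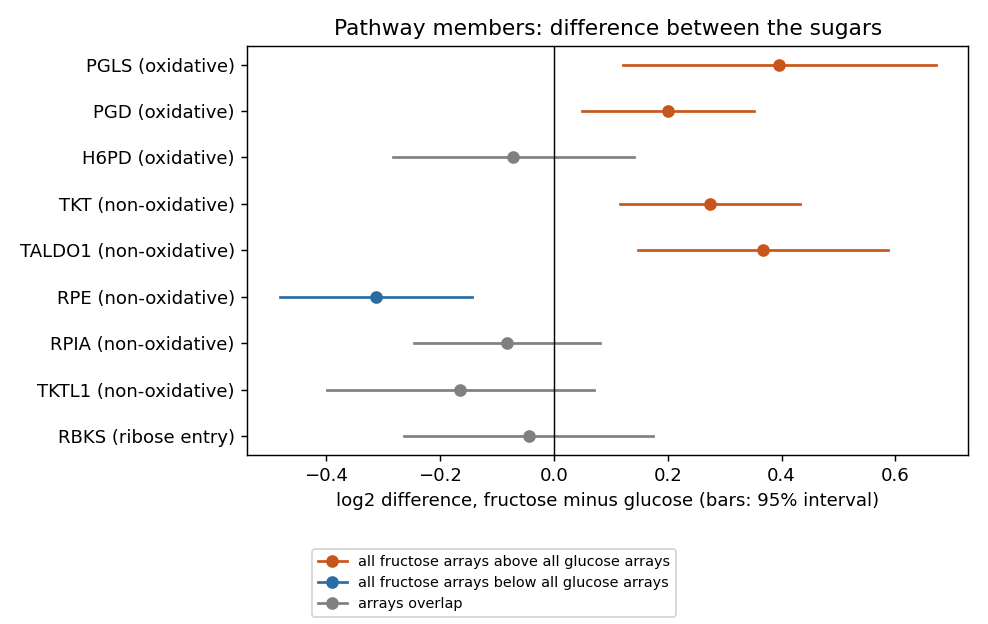
Log2 difference of each gene, fructose minus glucose (points), with its 95% interval from limma (bars), ordered by branch and coloured by whether the arrays of the sugars overlap. The intervals of PGLS, PGD, TKT and TALDO1 lie above 0 and that of RPE below it, before any correction for the number of probe sets tested.

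Set against the whole table, 4 of 9 members were higher on all fructose arrays, where 11.4% of probe sets were, and 1 of 9 was lower on all of them, where 8.81% were. Together 5 of 9 did not overlap, against 20.2% of probe sets. Bright probe sets separate more often, and among the 14115 above the median the share was 28.7%, against 5 of the 8 bright members. The members were chosen with earlier results of these arrays known, so the counts describe them and carry no test. Without fructose replicate 2 the count was 7 of 9, where 33.3% of all probe sets then did not overlap. These are RNA levels of whole cultures relative to all RNA on the array, so fewer cells with a transcript and less of it per cell cannot be told apart.

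Whether any member was called depended on the settings of the fit, of which the intensity trend and robust estimation were changed together. With the variance allowed to follow intensity and robust estimation, 473 probe sets passed instead of 1, and TKT (limma adjusted p = 0.025), RPE (0.033) and TALDO1 (0.037) were among them, while PGD (0.052) and PGLS (0.088) were not. Among bright probe sets alone 325 passed, and the smallest adjusted p of a member was 0.052, again for RPE. The differences themselves were the same in both settings.

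**Figure D3:**
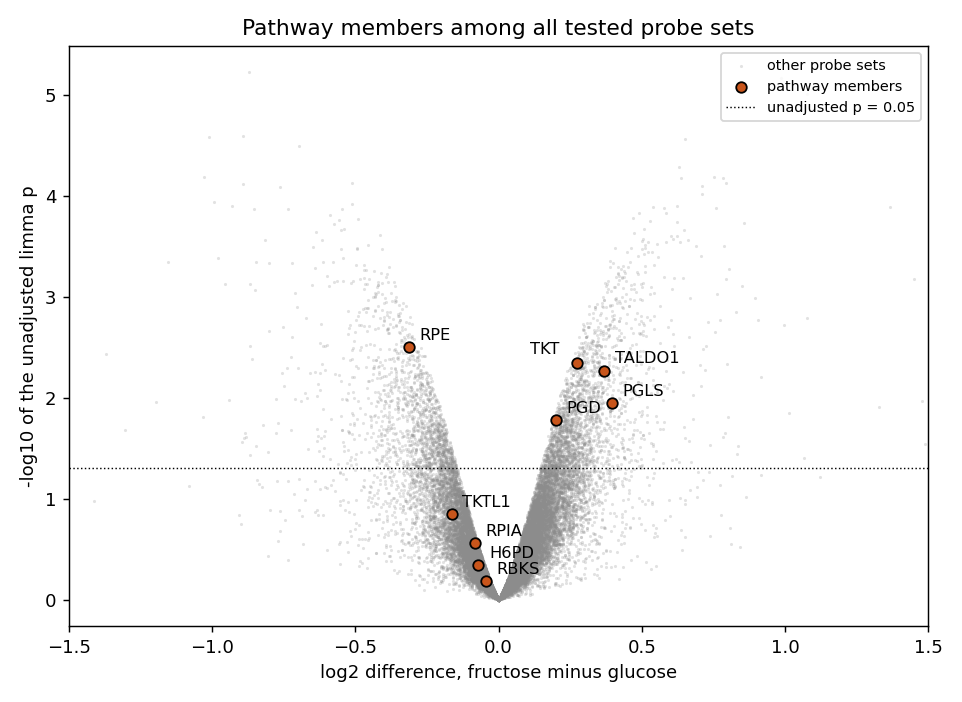
Each tested probe set by its log2 difference, fructose minus glucose (horizontal), and the negative log10 of its unadjusted limma p (vertical), with the 9 members in orange. The 3 probe sets beyond 1.5 in either direction, TXNIP among them, fall outside the axes. RPE, TKT, TALDO1, PGLS and PGD lie above the dotted line that marks the unadjusted limit of 0.05, within the cloud of other probe sets.

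By branch, the median log2 difference was 0.20 over the 3 oxidative genes and -0.08 over the 5 non-oxidative genes, beside 0.02 over all tested probe sets. On single fructose arrays the oxidative median lay above the glucose mean by 0.18, 0.21 and 0.20, while that of the glucose arrays was -0.07, 0.03 and 0.05. For the non-oxidative median the fructose arrays stood at -0.13, -0.01 and -0.09, beside -0.02, 0.01 and 0.00 in glucose. With the dim TKTL1 left out among bright probe sets, the non-oxidative median was 0.10, so its sign depended on which genes entered. A branch median here hides its members, since each branch held genes that separated and genes that overlapped. Over all 9 genes the median was -0.04, with 4 differences above 0 and 5 below it. It turned to 0.01 without fructose replicate 3, to 0.02 without glucose replicate 3 and to 0.08 over the 8 bright members.

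Pairs of genes were also compared as ratios within an array. The ratio of TKT to RPE within an array was above its glucose mean by 0.61, 0.60 and 0.55 in fructose, while the glucose arrays deviated by -0.13, 0.04 and 0.09 (log2). For TALDO1 over RPE the fructose arrays stood at 0.79, 0.72 and 0.54 and the glucose arrays at -0.10, -0.09 and 0.19. PGD, an oxidative gene, gave 0.46, 0.56 and 0.52 over RPE in fructose and -0.08, -0.06 and 0.14 in glucose. All these ratios to RPE were thus separated between the sugars by more than the spread within either of them. The ratio of TKT to TALDO1 overlapped, at -0.17, -0.12 and 0.01 in fructose and -0.02, 0.12 and -0.10 in glucose. TKT against RPIA gave 0.46, 0.28 and 0.33 in fructose and -0.05, 0.11 and -0.06 in glucose, and TKT against TKTL1 gave 0.66, 0.26 and 0.40 in fructose and -0.03, -0.05 and 0.08 in glucose. In neither pair did the sugars overlap. These pairs were chosen after the values were seen and have no test.

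**Figure D4:**
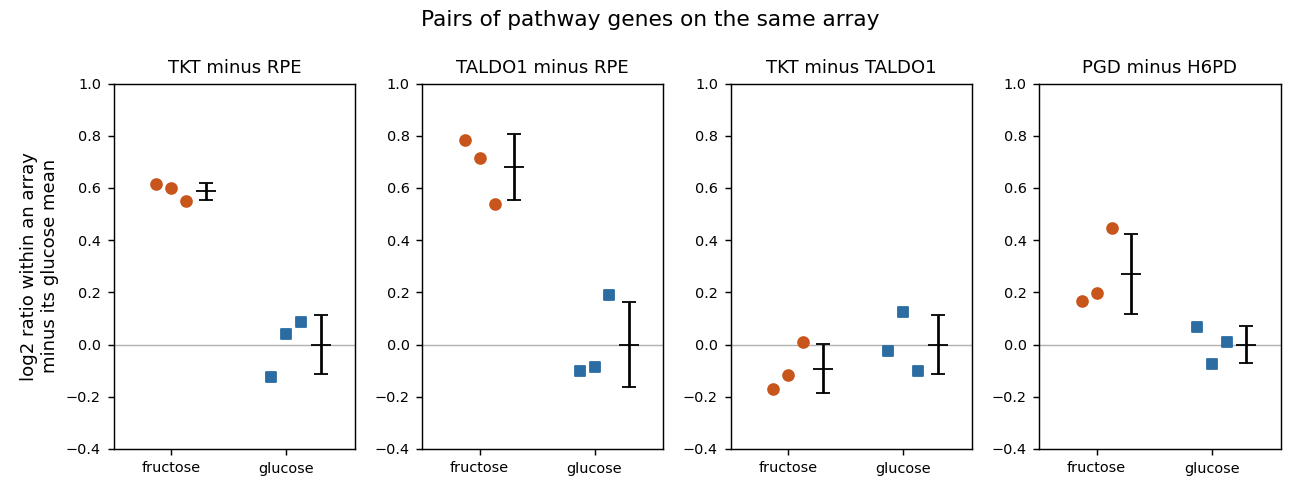
Log2 ratio of a pair of genes on the same array, minus the mean of that ratio over the glucose arrays, for fructose (orange circles) and glucose (blue squares), with mean and SD. TKT over RPE and TALDO1 over RPE are higher on all fructose arrays, by 0.59 and 0.68 in the mean, TKT over TALDO1 overlaps, and PGD over H6PD is higher by 0.27.

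The stretches upstream of the 5 genes whose arrays did not overlap are shown because 4 of them were higher together while RPE was lower. Each is the 250 bases before the gene's start, from RefSeq on build GRCh38.p14 and read along the gene's strand. Capitals mark matches on either strand to the GC box (GGGCGG), the CCAAT box (CCAAT) and the antioxidant response element core (TGACNNNGC), the motif bound by NRF2, a factor known to raise several genes of this pathway in human cancer cells.
TKT (chr3:53256023-53256272, minus strand): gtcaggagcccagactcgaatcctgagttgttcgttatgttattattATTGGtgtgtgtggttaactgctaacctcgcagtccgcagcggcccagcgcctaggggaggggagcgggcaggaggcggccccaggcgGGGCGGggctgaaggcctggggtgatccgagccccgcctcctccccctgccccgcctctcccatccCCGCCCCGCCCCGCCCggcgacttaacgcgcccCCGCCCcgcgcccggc
TALDO1 (chr11:747214-747463, plus strand): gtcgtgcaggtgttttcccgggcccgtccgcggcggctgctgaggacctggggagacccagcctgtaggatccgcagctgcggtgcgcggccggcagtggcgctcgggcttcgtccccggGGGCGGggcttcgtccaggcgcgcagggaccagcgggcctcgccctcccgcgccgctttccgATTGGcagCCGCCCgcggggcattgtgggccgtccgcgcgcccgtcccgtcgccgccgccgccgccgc
PGD (chr1:10398814-10399063, plus strand): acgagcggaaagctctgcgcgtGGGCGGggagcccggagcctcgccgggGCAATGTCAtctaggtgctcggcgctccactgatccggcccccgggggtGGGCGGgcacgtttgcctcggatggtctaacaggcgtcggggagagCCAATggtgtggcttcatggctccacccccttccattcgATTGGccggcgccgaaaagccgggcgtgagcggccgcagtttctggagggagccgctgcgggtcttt
PGLS (chr19:17511399-17511648, plus strand): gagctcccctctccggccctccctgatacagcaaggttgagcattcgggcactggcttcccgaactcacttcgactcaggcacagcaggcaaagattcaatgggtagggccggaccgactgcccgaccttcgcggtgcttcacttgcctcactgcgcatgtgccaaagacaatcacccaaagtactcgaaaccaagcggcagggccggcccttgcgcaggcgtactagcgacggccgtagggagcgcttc
RPE (chr2:210002388-210002637, plus strand): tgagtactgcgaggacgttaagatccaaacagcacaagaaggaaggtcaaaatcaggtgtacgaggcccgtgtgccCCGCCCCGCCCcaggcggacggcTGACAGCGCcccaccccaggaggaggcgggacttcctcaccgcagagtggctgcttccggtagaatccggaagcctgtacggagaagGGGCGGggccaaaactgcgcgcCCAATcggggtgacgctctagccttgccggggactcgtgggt

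TKT held 5 GC boxes, TALDO1 and PGD had 2 each and PGLS had none, while RPE had 3. A CCAAT box was present in TKT, TALDO1, PGD and RPE, with 2 in PGD. The antioxidant response element core matched in PGD and in RPE, and any part of NRF2 in these differences was not tested. No motif matched in PGLS. In TKT and RPE some neighbouring GC boxes share a base (3 pairs in all), and matches of different motifs did not overlap. Over the 10 windows of the 9 genes (TKTL1 has 2 starts), the GC box was found in 6, the CCAAT box in 5 and the antioxidant response element core in 2, whereas 42.6%, 32.0% and 10.9% of 35114 windows of the same length held them. The E-box CACGTG, bound by MLX partners and by MYC, was found in 0 of the 10 windows and in 6.3% of all windows. GC content was 70.4% in TKT, 78.4% in TALDO1, 68.4% in PGD, 61.6% in PGLS and 64.4% in RPE, beside a median of 58.0%. These are descriptions of letters, and no binding was measured here.

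Genes that lead into and out of the pathway were listed next, and 0 of 12 passed the test. At an unadjusted p under 0.05 in limma there were 5 of 12, where 13.1% of all probe sets were, and 4 of 12 did not overlap, where 20.2% of all did not. UPP1, uridine phosphorylase, which releases ribose 1-phosphate from uridine, was 124, 93.3 and 116 in fructose, against 77.2, 84.0 and 81.1 in glucose. All fructose arrays were higher, by 0.45 on the log2 scale (SE 0.11, limma adjusted p = 0.21). DCXR, which interconverts xylulose and xylitol on the route from glucuronate to xylulose 5-phosphate, had 470, 491 and 395 in fructose, against 356, 345 and 368 in glucose. It was separated as well, with a difference of 0.34 (SE 0.10, limma adjusted p = 0.24). PRPS1, which activates ribose 5-phosphate for nucleotide synthesis, went the other way, with 445, 443 and 408 in fructose, against 518, 456 and 537 in glucose, and a difference of -0.22 (SE 0.09, limma adjusted p = 0.35). Its paralog PRPS2 overlapped between the sugars, at -0.01 (interval -0.26 to 0.24). The list's median difference was -0.04.

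Other sources of NADPH showed 0 of 11 past the test, with a median difference of 0.06. At an unadjusted p under 0.05 in limma there were 0 of 11 (13.1% of all probe sets). Without overlap there was 1 of 11 (20.2% of all), IDH1, the cytosolic NADP-dependent isocitrate dehydrogenase. It had 508, 467 and 519 in fructose, against 446, 457 and 442 in glucose, a difference of 0.15 (SE 0.07, limma adjusted p = 0.42). ME1, the cytosolic malic enzyme, differed by 0.04 (interval -0.17 to 0.25). MTHFD2, a mitochondrial folate dehydrogenase, differed by 0.20 and NNT, the mitochondrial transhydrogenase, by 0.11, both with overlapping arrays.

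Around H6PD in the endoplasmic reticulum, 0 of 5 genes passed. A single one had an unadjusted p under 0.05 in limma (13.1% of all probe sets), and it was the one without overlap (20.2% of all). SLC37A2, a sugar phosphate exchanger of that membrane, was 278, 240 and 258 in fructose, against 170, 211 and 169 in glucose. Every fructose array was higher, by 0.50 (SE 0.11, interval 0.25 to 0.76, limma adjusted p = 0.17). SLC37A4, the transporter known to bring glucose 6-phosphate into the lumen, differed by 0.02 (interval -0.17 to 0.22), SLC37A1 by -0.14 and the phosphatase G6PC3 by 0.10. HSD11B1, the steroid reductase that uses the NADPH made by H6PD, was dim in both sugars, between 10.1 and 12.0 in fructose and between 9.46 and 11.4 in glucose. Of the 8 genes of upper glycolysis that share sugar phosphates with the pathway, 0 passed and the median difference was 0.04. In this list 1 of 8 had an unadjusted p under 0.05 in limma (13.1% of all probe sets), and 2 of 8 did not overlap (20.2% of all). HK2 differed by 0.19 (SE 0.08, limma adjusted p = 0.35) and PFKP by 0.11, both without overlap. GPI, which joins glucose 6-phosphate to fructose 6-phosphate, differed by -0.07, and ALDOA by 0.08.

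**Figure D5:**
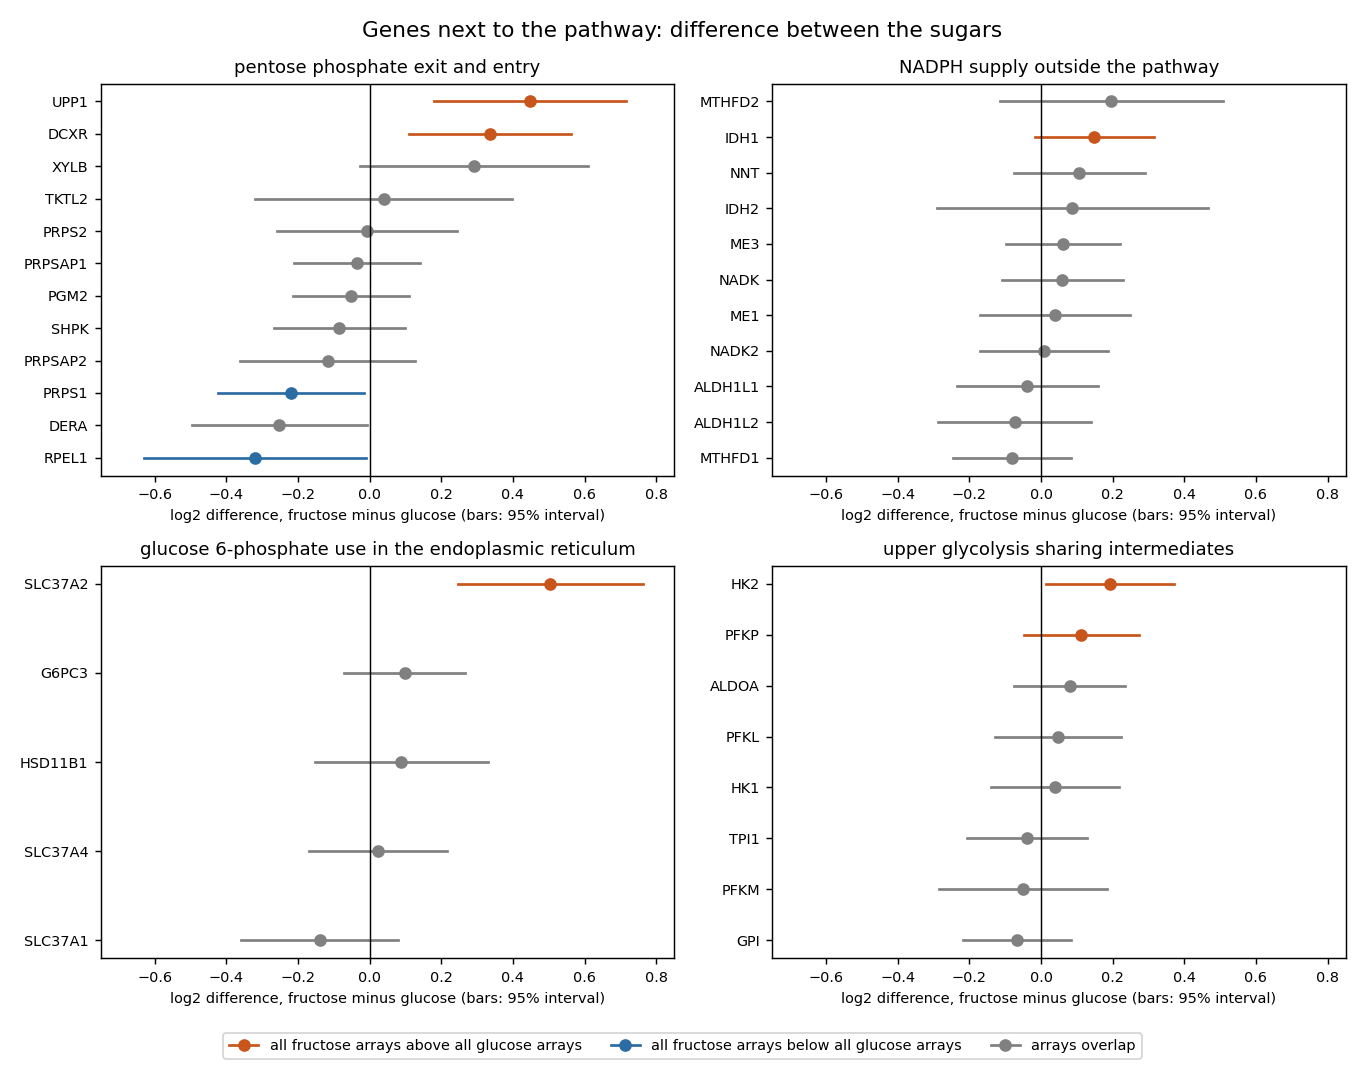
Log2 difference, fructose minus glucose, with 95% interval from limma for the genes of 4 lists around the pathway, coloured by whether the arrays of the sugars overlap. UPP1, DCXR and SLC37A2 lie highest and RPEL1, DERA and PRPS1 lowest, and no gene of these lists passed the test over all probe sets.

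RPE had the smallest p of the 9, and the bright genes with the most similar profile to it over the 6 arrays were SEPTIN2 (Pearson r = 0.998), WDR43 (0.994), HNRNPD (0.994), MAP3K7CL (0.989) and ERH (0.989), out of 11051 candidates. All 5 were lower on every fructose array than on any glucose array, as RPE was, so that the correlation holds the difference between the sugars and is given as a description. Their log2 differences were smaller in size than that of RPE, from -0.08 for ERH to -0.27 for MAP3K7CL.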

How the data were processed

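The authors deposited RMA values, per the submitters' processing notes, as an intensity for each probe set on each array. The RMA version and program were not given in the sources used here. Values were on the linear scale (2.15 to 7940 among tested probe sets), and log2 was taken with no pseudocount. Of 32321 rows, the 4091 numbered below the lowest annotated probe set were taken as controls and left out. The annotation named 19158 of the other 28230 with 1 gene, and the brightest probe set represented each gene.

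Fructose minus glucose was fitted with limma 3.58.1 in R 4.3.3 over all 28230, two-sided, with Benjamini-Hochberg adjustment and a threshold of 0.05. The fit was checked on simulated data. Precision is limited by how few arrays there were, and standard errors of the 9 genes ran from 0.064 to 0.117 (log2).

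Members and lists were chosen with earlier results of these data known. Named genes were the 9 members, TXNIP, the 3 genes of each related list with the smallest p and the 5 most like the member with the smallest p. Others were named for their role after values were seen. The fit was repeated with array weights, variances that follow intensity (robust), bright probe sets, 2 further normalizations, the replicate number as a block, each array left out, controls kept and a gene's probe sets averaged.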

Additional observations from a re-analysis of the deposited data

How the results depend on the processing

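All 9 genes kept the sign of their difference in 12 of 14 alternatives, counting the 8 measured ones among bright probe sets. The exceptions were H6PD, at 0.010 without fructose replicate 3 (from -0.11 to 0.010 with an array left out), and RBKS, at 0.017 without glucose replicate 3 (from -0.124 to 0.017). No member passed in 13 of 14 alternatives. With the intensity trend and robust variances 3 passed (TKT, RPE and TALDO1), as 473 probe sets did, against 325 among bright probe sets alone and 1 in the fit as reported. The cause was not tested. The pathway median lay between -0.083 and 0.017 with an array left out (9 genes). Among bright probe sets, where TKTL1 is missing, it was 0.078 over 8 genes, and the non-oxidative median was 0.096. With an array left out, 5 to 7 of the 9 members did not overlap, where 29% to 33.3% of all probe sets did not. The oxidative median then ran from 0.18 to 0.22 and the non-oxidative median from -0.11 to -0.05. The replicate block, for numbers whose arrays did not deviate together (correlations -0.026, -0.021 and -0.054), left 1 call in all and a smallest adjusted p of 0.38 among members (limma).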
